A study of Homo sapiens with 6 samples.

Results

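Translation factors are the proteins that load ribosomes onto messenger RNA and drive them along it. The genes described here were those whose symbol on the array's annotation begins with EIF1 to EIF6 (initiation factors and their regulators) or with EEF1 or EEF2 (elongation factors and their modifiers), without the EIF2AK kinases and without pseudogenes. This gave 57 of the 18417 genes measured, and each was read from the probe set of that gene alone with the highest mean over the 6 arrays. Of the 57, 56 code for proteins and 1, EIF3J-DT, is a noncoding transcript. EIF3C, EIF3CL, EIF4A1, EIF4EBP3, EIF5A and EIF5AL1 were only on probe sets that name several genes, so they had no value of their own.

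The arrays measured RNA from A549, a human lung adenocarcinoma cell line, in 3 samples of stable cells labelled H2AX knockdown (P1 in the labels) and 3 samples of control stable cells (C). H2AX is the histone variant that is phosphorylated beside DNA double-strand breaks. All 6 samples had gone without serum overnight before 48 h in VP-16 (etoposide), a topoisomerase II poison that breaks DNA. No sample without the drug was analysed here, and the way the knockdown was made and the number of stable lines are not given in the sources used here. Where nothing else is stated, values are log2 signals, on which a difference of 1 is a doubling, and differences are knockdown-labelled minus control.

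The targeted gene did not bear out the group label. H2AX read 5.28, 5.17 and 5.49 in the knockdown-labelled arrays, against 5.11, 5.27 and 5.26 in the control arrays. The difference was 0.10 (95% interval −0.25 to 0.45; exact permutation test, 2-sided, p = 0.4, where 0.1 is the smallest p that 3 against 3 arrays can give). Directions below are therefore those of arrays labelled knockdown, not of a measured loss of H2AX. The cell line's keratins KRT8 (9.92 and 9.69 in knockdown-labelled and control arrays), KRT18 (8.44 and 8.67) and KRT7 (8.29 and 8.52) were bright, while EPCAM, a surface marker of epithelial cells, read only 2.57 and 2.42. The 4 enzymes listed for this line, AKR1B10, AKR1C1, NQO1 and ALDH1A1, had differences below 0 in 4 of 4 (median −0.42). AKR1C1 (−0.58) and ALDH1A1 (−0.61) were lower at an unadjusted p under 0.05, a level 8.38% of all genes reached downwards. Of other cell types, the 4 fibroblast markers had differences above 0 in 4 of 4 (median 0.43), 1 of them at an unadjusted p under 0.05. Their median per array was 2.93 to 3.71 in knockdown-labelled and 2.77 to 2.93 in control arrays, and the median of 3 leukocyte markers was 2.18 to 2.45 and 2.11 to 2.26. Dim genes in general read higher in knockdown-labelled arrays, and the fibroblast markers LUM and DCN had mean signals of only 1.69 and 2.03. Relative to genes of like brightness, a comparison explained below, the median difference was −0.10 for the 4 enzymes, 0.29 for the fibroblast markers and −0.03 for the leukocyte markers. The part of such cells in the results below was not tested.

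Initiation is the step at which a cell mostly sets how much protein it makes. EIF2 brings the initiator tRNA, EIF3 and the small EIF1 proteins hold the scanning ribosomal subunit, and the EIF4 proteins bind the cap of the messenger RNA and unwind it. Stress, DNA damage included, can slow the process by phosphorylation of EIF2 or by proteins that hold EIF4E, and elongation is slowed by phosphorylation of EEF2. Many messenger RNAs of the translation machinery begin with a C followed by a run of pyrimidines, the terminal oligopyrimidine start through which mTOR signalling controls their translation. None of these phosphorylation events is visible in RNA levels.

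That feature can be read from the annotated start sites. RefSeq promoter windows (GRCh38.p14) were available for 44 of the 57 genes, and 13 of them (29.5%) had a C at an annotated start followed by at least 4 further C or T, against 6.24% of the 15843 protein-coding genes with a window. The windows below show 20 bases before and 10 from the start, 5′ to 3′ on the gene's strand, with the pyrimidine run in capitals. They show the 4 initiation factors with such a start whose unadjusted p was lowest, beside the main elongation factors.
EIF3M (chr11:32583811-32583840, plus strand): gcgtcgcgcggcccagttccCTTTTCCggt
EIF3F (chr11:7987317-7987346, plus strand): gtcatttccgcttccgcctcCTTCTTTCTC
EIF3K (chr19:38619168-38619197, plus strand): gtcgtttccgtttccaccacCTCTTCCTgt
EIF2D (chr1:206612456-206612485, minus strand): gccctggtttccagccgggcCCTTTTCgcg
EEF1A1 (chr6:73521023-73521052, minus strand): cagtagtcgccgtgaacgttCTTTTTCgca
EEF2 (chr19:3985454-3985483, minus strand): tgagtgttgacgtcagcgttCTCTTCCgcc
The 13 genes with such a start had a median difference of −0.33 (11 below 0) and the 31 without had one of −0.26 (26 below 0). Relative to genes of like brightness, a comparison explained with the counts below, the order turned round, with medians of −0.01 with the start and −0.07 without.

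EIF2S3 and its copy EIF2S3B on chromosome 12 shared this start, with 28 of 30 bases identical in the windows shown for that reason.
EIF2S3 (chrX:24054936-24054965, plus strand): cagccggggtgatttccttcCTCTTTTggc
EIF2S3B (chr12:10505870-10505899, plus strand): cagccggggtgactttcttcCTCTTTTggc
Copies of a gene can share probes, though the windows, mostly bases before the start, do not show how alike the transcripts are. The mean signals were far apart, 7.72 for EIF2S3 and 1.45 for EIF2S3B. Whether each measures a single gene was not tested.

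A second motif, the E-box CACGTG, which reads the same on both strands and is bound by MYC family proteins among others, lay within the window of 250 bases before to 50 after a start in 11 of the 44 genes (25%), against 10.9% of the 15843. EIF4E, the cap-binding protein, had 2 copies before its start, as did EIF4G1 and EIF5A2. EIF3F, EIF1B and EIF4A3 had the lowest unadjusted p among the 11 (capitals mark the motif).
EIF4E (chr4:98929341-98929370, minus strand): ctacccatcggcCACGTGaccagtcctttt
EIF4E (chr4:98929188-98929217, minus strand): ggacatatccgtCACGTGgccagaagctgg
EIF3F (chr11:7987257-7987286, plus strand): aaagctctagctCACGTGgtgtatattcag
EIF1B (chr3:40309641-40309670, plus strand): gcgcgggacggtCACGTGggaggggccgcg
EIF4A3 (chr17:80147232-80147261, minus strand): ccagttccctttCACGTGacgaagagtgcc
The 11 genes with the motif had a median difference of −0.17 (11 below 0) and the 33 without it one of −0.28 (26 below 0), or −0.04 and −0.07 relative to genes of like brightness. These matches are descriptions of the letters in the windows and not evidence of binding.

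No translation factor gene passed the test over all genes. In limma with Benjamini-Hochberg adjustment over 18417 genes, 0 of the 57 had an adjusted p under 0.05 (the lowest was 0.289), where 0.0326% of all genes did and 0.0271% did in the lower direction. At an unadjusted p under 0.05, 18 of the 57 (31.6%) were lower in the knockdown-labelled arrays, against 8.38% of all genes, and 0 were higher, against 3.78%. The 3 knockdown-labelled arrays lay wholly below the 3 control arrays for 18 genes and wholly above for 1, against 9.82% and 7.17% of all genes. Both held for 11 genes, but these measures depend on each other and the share of all genes meeting both was not computed. The difference was below 0 for 48 of the 57, against 51.5% of all genes, with a median of −0.27 against −0.01. In bulk RNA a lower signal cannot tell fewer cells that carry a transcript from less of it in each cell. By the labels each group is a set of separate experiments, with no word on separate lines, so p-values rest on the spread between those samples, which may be technical.

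Much of that shift was shared by genes of like brightness. On these arrays bright genes read lower in knockdown-labelled than in control samples, and 36 of the 57 translation factor genes lay in the brightest 20% of genes, where the median difference of all genes was −0.25 and 85.3% were below 0. To allow for this, genes were placed in 50 bins of 368 or 369 by mean signal, and each gene's difference was set beside the median of its bin. In the bins of the 57 genes, 75.2% of genes were below 0 on average, 20.5% were lower at an unadjusted p under 0.05 and 21.0% had 3 knockdown-labelled arrays wholly below the controls. After the bin median was subtracted the median of the 57 was −0.05, with 35 of the 57 below the median of their bin. The brightest bin is wide, with mean signals of 7.34 to 12.4, so the comparison is coarse for the brightest genes.

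**Figure D1:**
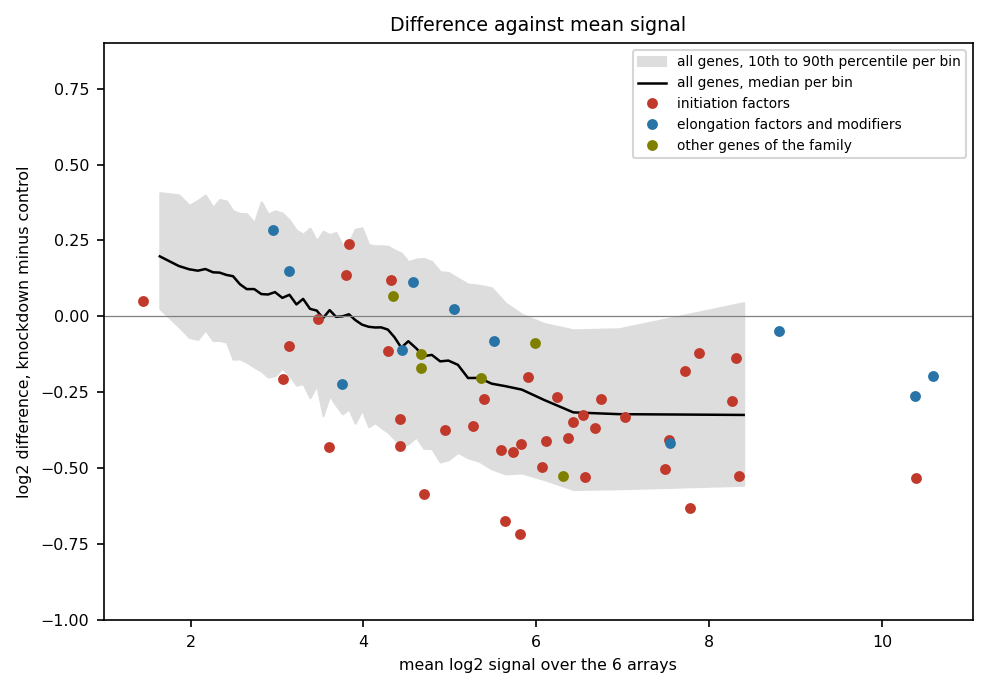
Each point is a translation factor gene, with its mean log2 signal over the 6 arrays on the x axis and its log2 difference (knockdown-labelled minus control) on the y axis. The black line and grey band are the median and the 10th to 90th percentile of all genes in 50 bins of mean signal. Most initiation factors (red) lie below the line, and most elongation factors and their modifiers (blue) lie on or above it.

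The arrays did not carry the shift evenly. With each gene's control mean as zero, the median over the 57 genes was −0.35, −0.20 and −0.18 in the knockdown-labelled arrays (replicates 1 to 3), against 0.13, −0.11 and 0.01 in the control arrays. The first knockdown-labelled array was the lowest of the 6 for 29 of the 57 genes and the first control array the highest for 36. The same arrays stood apart over all genes, with the smallest SD of signals (1.29) in the first knockdown-labelled array and the largest (1.56) in the first control array. The count of 18 genes at an unadjusted p under 0.05 became 10 when knockdown-labelled replicate 1 was dropped (5.33% of all genes), 5 when control replicate 1 was (3.34%) and 6 when control replicate 3 was (5.39%). It was 2 of 57 without both replicate 1 arrays, a setting chosen after seeing the data, close to the 2.94% of all genes there. In that setting 44 of 57 differences were below 0, with a median of −0.12.

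The 40 genes grouped by name as the initiation machinery (EIF1, EIF2, EIF2B, EIF3, EIF4 and EIF5 proteins) include EIF4A3, which does not act at the cap. They had a median difference of −0.35, with 36 below 0. Of these 40, 16 (40%) were lower at an unadjusted p under 0.05, against 8.38% of all genes and 20.5% in the bins of the whole family. The 11 elongation factors and their modifying enzymes had a median of −0.08, with 7 below 0 and 1 lower at that level. Relative to the bin of like brightness these medians were −0.14 (30 of 40 below their bin) and 0.13 (3 of 11). This split into 2 sets was made after the values were seen, so the contrast between them is a description and was not tested.

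The initiation set stood below genes of like signal in each knockdown-labelled array, with medians of −0.16, −0.14 and −0.09 over replicates 1 to 3. For the elongation set these were 0.18, 0.08 and −0.04. In the controls, whose mean is the zero of this scale, they ran from −0.02 to 0.01 for initiation and from −0.03 to 0.03 for elongation. Replicate 3 thus had both sets below their bins, and the gap between them was widest in replicate 1. Without knockdown-labelled replicate 1 the elongation median relative to its bins was 0.04 and without control replicate 2 it was 0.09. The initiation median was −0.10 without knockdown-labelled replicate 1 or replicate 3 and between −0.13 and −0.12 without any one of the others. Without both replicate 1 arrays the medians were −0.07 for initiation and 0.03 for elongation.

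**Figure D2:**
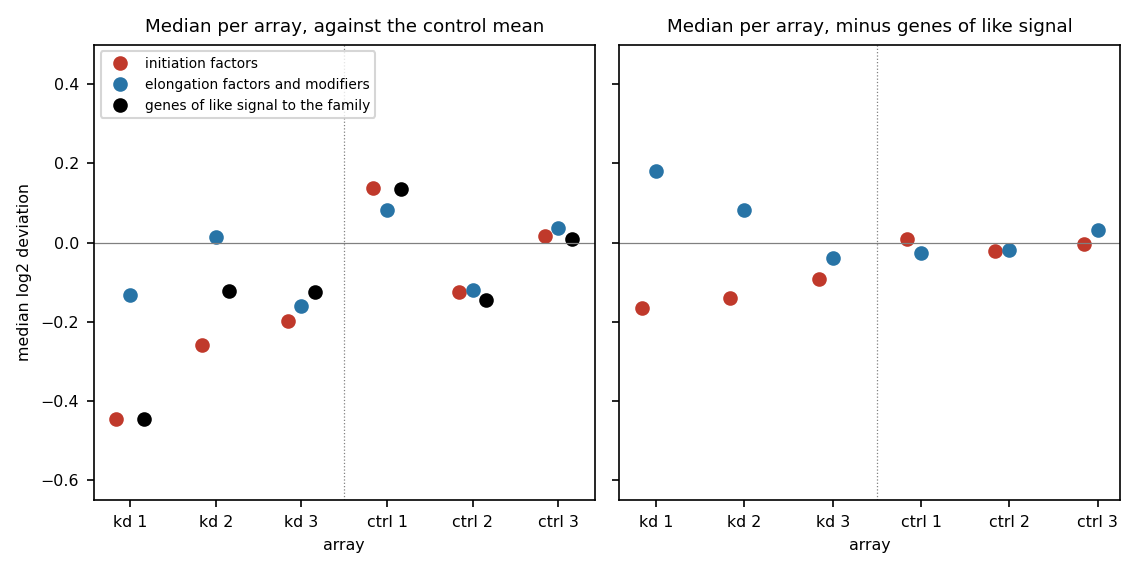
Median log2 deviation from the control mean in each array (x axis, knockdown-labelled arrays kd 1 to 3 left of control arrays), as measured in the left panel and after subtracting the median of genes of like signal in the right panel. In the right panel initiation factors (red) sit at −0.16 to −0.09 in the 3 knockdown-labelled arrays and near 0 in the controls, while elongation factors and modifiers (blue) run from −0.04 to 0.18.

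The proteins that find the start codon and join the ribosomal subunits, grouped with the relative EIF1AD, had differences below 0 in 7 of 7 genes (median −0.41). All of these lay below the median of their bin. EIF5, which makes EIF2 hydrolyse its GTP once the start codon is found, read 4.79, 5.56 and 6.01 in knockdown-labelled arrays, against 6.38, 6.16 and 5.98 in control arrays. Knockdown-labelled replicate 1 was far below the rest and replicate 3 fell within the controls, so the groups overlapped. The difference of −0.72 (SE 0.255, limma adjusted p = 0.327) became −0.38 without knockdown-labelled replicate 1 and −0.28 without both replicate 1 arrays. EIF1, which keeps scanning ribosomes from settling on wrong codons, read 9.81, 10.25 and 10.30 in knockdown-labelled arrays, against 10.80, 10.41 and 10.76 in control arrays, a difference of −0.53 (SE 0.186) with no overlap.

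The close relative EIF1B had separate groups. It read 3.43, 3.36 and 3.36 in knockdown-labelled arrays, against 3.79, 3.77 and 3.88 in control arrays. The spread within each group was small (SD 0.04 and 0.06) and the difference was −0.43 (SE 0.151, limma adjusted p = 0.326), where genes of its brightness had a median of 0.02. Its difference stayed between −0.48 and −0.40 over the alternatives run. EIF1AX, the scanning partner of EIF1, read 5.96, 5.72 and 6.03 in knockdown-labelled arrays, against 6.28, 6.31 and 6.36 in control arrays (difference −0.41). Its second probe set gave −0.33. The GTPase EIF5B, which joins the large subunit, was at −0.34 and EIF1AD, a relative of EIF1AX, at −0.37. EIF1AY, the Y-linked near copy of EIF1AX that could share its probes, was at −0.21.

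EIF2, the carrier of the initiator tRNA and the target of the stress kinases, has 3 subunits, and they did not show one size of difference. EIF2S2, the beta subunit, read 4.90, 5.26 and 5.75 in knockdown-labelled arrays, against 6.10, 6.00 and 5.84 in control arrays. The groups were separate and the difference was −0.67 (SE 0.206, limma adjusted p = 0.289). EIF2S1, the alpha subunit that is phosphorylated in stress, read 5.54, 5.22 and 5.75 in knockdown-labelled arrays, against 6.27, 5.71 and 5.88 in control arrays, a difference of −0.45 with overlap. EIF2S3, the gamma subunit that binds GTP, read 7.55, 7.69 and 7.66 in knockdown-labelled arrays, against 7.92, 7.72 and 7.80 in control arrays. Its groups were separate but close, and the difference of −0.18 was smaller than the median of its bin (−0.32) and turned above 0 after quantile normalization (0.05) and cyclic loess (0.08).

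Both factors that can deliver tRNA to the ribosome without EIF2 had separate groups. EIF2D read 4.21, 4.33 and 4.09 in knockdown-labelled arrays, against 4.86, 4.55 and 4.50 in control arrays (difference −0.43, SE 0.166, limma adjusted p = 0.357). EIF2A was at −0.36. The copy EIF2S3B, with a mean signal of 1.45, was at 0.05.

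EIF2B, the exchange factor that recharges EIF2 with GTP, split among its subunits. EIF2B1, EIF2B2 and EIF2B4, the alpha, beta and delta subunits of its regulatory part, were at −0.49, −0.44 and −0.42. EIF2B3 and EIF2B5, the gamma and epsilon subunits of its catalytic part, were at −0.01 and 0.14. EIF2B4, the only one of the 5 with separate groups, read 5.52, 5.82 and 5.48 in knockdown-labelled arrays, against 6.19, 5.82 and 6.08 in control arrays, so the separation rested on a margin under 0.01. The bins of EIF2B3 and EIF2B5 had medians of 0.02 and 0.00, while those of the other subunits lay between −0.27 and −0.23. The difference between the regulatory and the catalytic subunits was not tested.

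EIF3, the largest initiation factor, holds the small ribosomal subunit and recruits the messenger RNA. All 12 measured subunits were below 0 (median −0.38), 5 at an unadjusted p under 0.05, and 6 had separate groups. In the brightest 20% of all genes 85.3% were below 0, 22.9% were lower at that level and 23.2% had knockdown-labelled arrays wholly below the controls. Set beside genes of like brightness the median was −0.08, so most of the value was shared with other bright genes. EIF3M read 7.37, 7.21 and 7.82 in knockdown-labelled arrays, against 8.36, 7.94 and 8.00 in control arrays, a difference of −0.63 (SE 0.194, limma adjusted p = 0.289) with no overlap. EIF3F read 7.92, 8.07 and 8.28 in knockdown-labelled arrays, against 8.79, 8.40 and 8.66 in control arrays, a difference of −0.53 with no overlap. A second probe set of EIF3F gave −0.13, so this value depends on the probes read.

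EIF3K read 7.27, 7.32 and 7.40 in knockdown-labelled arrays, against 7.86, 7.56 and 7.79 in control arrays. Its groups were separate and tight, with a difference of −0.41 (SE 0.159), of which −0.32 was the median of its bin. EIF3E read 3.92, 4.49 and 4.80 in knockdown-labelled arrays, against 5.39, 4.52 and 5.06 in control arrays. The difference of −0.59 was large but the SD was 0.44 in both groups and they overlapped. It was −0.35 without knockdown-labelled replicate 1 and −0.39 without control replicate 1. The scaffold subunits EIF3A and EIF3B were at −0.27 and −0.20, the other subunits EIF3L, EIF3G, EIF3I, EIF3H and EIF3D between −0.50 and −0.33, and EIF3J, which binds the complex loosely, at −0.11.

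Of the 10 cap-binding and helicase genes 8 were below 0, against 51.5% of all genes and 75.2% in the bins of the whole family. Their median was −0.20, or 0.03 relative to their bins. Only 1 of the 10 was lower at an unadjusted p under 0.05, against 8.38% of all genes and 20.5% in those bins. That gene was EIF4A3, the helicase of the exon junction complex, which despite its name acts on spliced messenger RNA and not at the cap. It read 5.98, 6.39 and 6.53 in knockdown-labelled arrays, against 7.00, 6.55 and 6.95 in control arrays (difference −0.53, SE 0.192, limma adjusted p = 0.333). The groups were separate by a narrow margin. EIF4A2, a helicase that does work at the cap, read 6.32, 6.19 and 6.62 in knockdown-labelled arrays, against 6.81, 6.66 and 6.64 in control arrays, a difference of −0.33 that equalled the median of its bin to within 0.01.

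EIF4E, which binds the cap, read 3.27, 3.05 and 2.95 in knockdown-labelled arrays, against 3.52, 3.25 and 2.80 in control arrays. The groups overlapped, and the difference of −0.10 had a 95% interval of −0.52 to 0.32. EIF4E2, a cap-binding relative that represses translation, read 5.50, 5.11 and 5.17 in knockdown-labelled arrays, against 5.55, 5.37 and 5.68 in control arrays (difference −0.27). EIF4E3, another relative, read 4.55, 4.42 and 4.16 in knockdown-labelled arrays, against 4.39, 4.29 and 4.08 in control arrays (difference 0.12). Overlap of the groups was seen in each of these 3 genes.

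Among the scaffolds, EIF4G1, which bridges the cap and the ribosome, read 5.71, 6.23 and 6.37 in knockdown-labelled arrays, against 6.49, 6.12 and 6.50 in control arrays (difference −0.26, 95% interval −0.69 to 0.16). Without knockdown-labelled replicate 1 the EIF4G1 difference was −0.07, and without both replicate 1 arrays it was −0.01. EIF4G2, which lacks the part that binds EIF4E and serves cap-independent initiation, read 7.87, 8.18 and 8.30 in knockdown-labelled arrays, against 8.57, 8.26 and 8.36 in control arrays (difference −0.28). Both overlapped, and both differences were within 0.05 of the median of their bins. The helicase cofactors EIF4B and EIF4H were at −0.12 and −0.14, above the −0.32 of genes as bright. The 2 other probe sets of EIF4B gave −0.34 and −0.26, so its value depends on the probes read, while the other of EIF4H gave −0.12. EIF4E1B, a further relative of EIF4E, was at 0.24, with overlap.

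**Figure D3:**
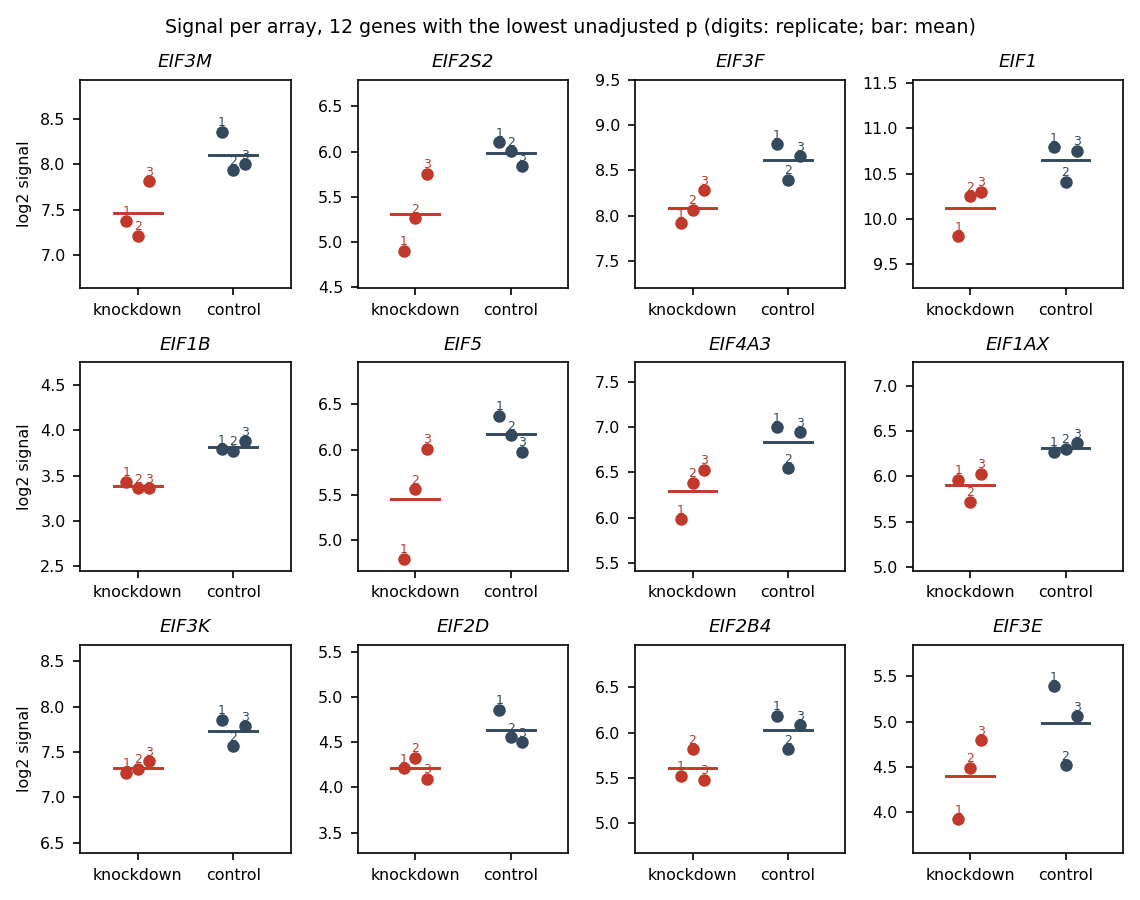
Log2 signal (y axis, the same span of 2.3 in each panel) of the 12 translation factor genes with the lowest unadjusted p, with knockdown-labelled arrays on the left, control arrays on the right, digits for the replicate and a bar for the group mean. The groups were separate in 10 panels and overlapped in EIF5 and EIF3E, and knockdown-labelled replicate 1 was the lowest point in 7 panels. Choosing genes by low p favours separate groups, which 9.82% of all genes had in the lower direction.

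The repressors that hold EIF4E away from the scaffold did not share 1 size of difference. EIF4EBP2 read 5.54, 6.19 and 6.40 in knockdown-labelled arrays, against 6.87, 6.29 and 6.54 in control arrays, a difference of −0.53 with overlap and an unadjusted p of 0.0362 (limma adjusted p = 0.385). It became −0.28 without knockdown-labelled replicate 1 and −0.13 without both replicate 1 arrays. EIF4EBP1 read 5.07, 5.52 and 5.19 in knockdown-labelled arrays, against 5.51, 5.42 and 5.46 in control arrays, a difference of −0.20 that matched the median of its bin. EIF4ENIF1, which carries EIF4E into the nucleus, was at 0.07. EIF6, which keeps free large subunits from joining, was at −0.09, and EIF5A2 read 4.54, 4.38 and 4.83 in knockdown-labelled arrays, against 4.94, 4.76 and 4.55 in control arrays (difference −0.17).

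Elongation factors are among the most abundant proteins of the cell, and 4 of the 6 measured fell in the brightest bin, whose median was −0.32. EEF1A1, which brings charged tRNA to the ribosome, read 10.17, 10.18 and 10.42 in knockdown-labelled arrays, against 10.66, 10.36 and 10.53 in control arrays. The groups overlapped and the difference of −0.26 (95% interval −0.61 to 0.09) was smaller than the −0.32 of its bin. Its second probe set gave −0.25, and the gene has many processed pseudogenes, so its signal may not come from 1 gene. EEF1A2, the form of muscle and neurons, read 5.41, 5.62 and 5.40 in knockdown-labelled arrays, against 5.65, 5.55 and 5.47 in control arrays, a difference of −0.08 whose sign turned under quantile normalization (0.09), cyclic loess (0.12) and array weights (0.01).

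EEF2, the translocase that moves the ribosome by 1 codon, read 8.55, 8.88 and 8.93 in knockdown-labelled arrays, against 9.00, 8.63 and 8.87 in control arrays. The groups overlapped throughout, and the difference was −0.05 with a 95% interval of −0.42 to 0.33. That lay 0.28 above the median of genes as bright, and the sign turned after quantile normalization (0.11) and cyclic loess (0.17). EEF2K, the kinase that inhibits EEF2, read 4.40, 4.51 and 4.25 in knockdown-labelled arrays, against 4.49, 4.64 and 4.37 in control arrays (difference −0.11, with overlap).

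The complex that recharges EEF1A with GTP had mixed values. EEF1D was at −0.42 (unadjusted p 0.0492, limma adjusted p = 0.411), the one elongation factor below the median of its bin, but its second probe set gave 0.20. EEF1G was at −0.20 and EEF1B2 at 0.11. Among the enzymes that methylate elongation factors, EEF1AKMT1 was at 0.29, the largest value above 0 in the family and the one gene whose knockdown-labelled arrays all lay above the controls. EEF1AKMT2 was at 0.15, EEF2KMT at 0.03 and EEF1AKMT3 at −0.22. None had an unadjusted p under 0.05, and the noncoding EIF3J-DT was at −0.12.

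**Figure D4:**
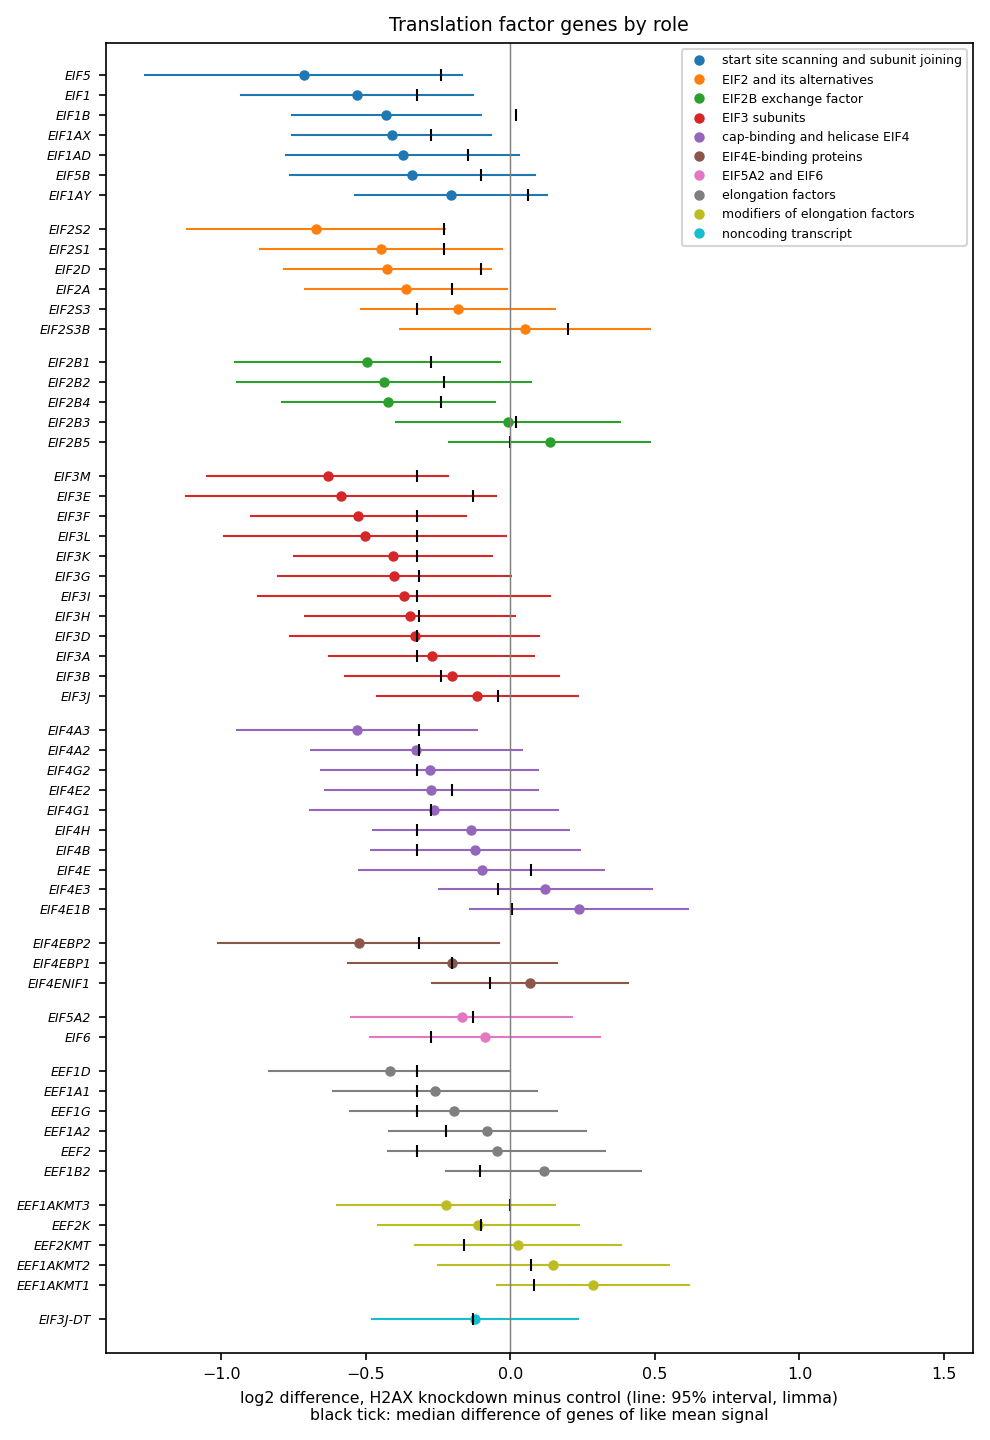
Log2 difference (x axis, knockdown-labelled minus control) of each of the 57 genes, grouped by role and sorted within role, with lines for limma's 95% interval and black ticks for the median difference of genes of like mean signal. In the first role group, start site scanning and subunit joining, all 7 points lie left of their ticks. Among the 6 elongation factors 1 does.

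The neighbours of these genes in the pathway were taken from 6 further lists. In none of these lists did a gene pass the threshold over all genes in limma. The cytosolic aminoacyl-tRNA synthetases, which charge tRNA for elongation, had differences below 0 in 18 of 19 measured genes (median −0.39, or −0.07 relative to their bins), with 6 (31.6%) at an unadjusted p under 0.05, all of them lower. That level was reached downwards by 8.38% of all genes and by 22.9% of the brightest 20%. Among these were GARS1 (−0.57), HARS1 (−0.55), EPRS1 (−0.52) and RARS1 (−0.49). The 14 cap and mTOR regulators had a median of −0.26 (13 below 0), with 3 lower at that level: PAIP1 (−0.49), a helper of the poly(A)-binding protein, PAIP2 (−0.36), its inhibitor, and RPS6 (−0.44), the ribosomal protein that mTOR's S6 kinases phosphorylate.

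The EIF2 kinases and the genes of the response they start were below 0 in 8 of 8 (median −0.30, or −0.06 relative to their bins), with 0 at an unadjusted p under 0.05. For termination, recycling and reinitiation the median was −0.13 (5 of 8 below 0), with GSPT1, a release factor, at −0.45 and an unadjusted p of 0.0353. For elongation accessories it was −0.07 (5 of 6 below 0), with DPH2, an enzyme of the diphthamide on EEF2, at −0.42 and an unadjusted p of 0.048. Mitochondrial translation factors, the counterpart of the family inside mitochondria, had a median of −0.03 (4 of 8 below 0) and 0 genes at that level. The cytosolic lists thus read below 0 in most genes and the mitochondrial list did not, a contrast that was not tested. Brightness differed too, as all mitochondrial genes but TUFM (6.08) had mean signals of 2.31 to 4.15. Among all genes, those as dim read below 0 less often than bright genes. Relative to their bins the median was 0.06 for the mitochondrial list and −0.07 for termination, recycling and reinitiation. For the elongation accessories and for the cap and mTOR regulators it was −0.05.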

How the data were processed

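The deposited values are log2 signals of 33297 probe sets on each of 6 Affymetrix arrays, and the submitters' processing notes name RMA. Its version and settings and any genome build are not given in the sources used here, and the log2 scale was read from the values (0.611 to 13.2). The main results use the values as deposited, and these did not share 1 distribution across arrays. Over the genes kept, the SD per array ran from 1.29 to 1.56 and the median from 3.75 to 3.87. Quantile normalization moved the median difference of the translation factor genes from −0.27 to −0.14. RMA compresses differences of dim probe sets, and signal over background could not be read, so no gene was called absent. The number of arrays limits the precision.

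Probe sets with 1 gene (19460) were named from the platform's annotation, and 1754 with several genes and 12083 with none were left out. For each of 18417 genes the brightest probe set was kept, with no filter on signal. limma 3.58.1 (R 4.3.3) was fitted to all genes as a 2-sided test of the groups alone, with Benjamini-Hochberg adjustment and a threshold of 0.05, and was tested on simulated data. Figures were drawn with matplotlib 3.10.9. Promoter sequences are RefSeq's (GRCh38.p14), counted over all annotated starts of a gene.

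Genes, lists and tests were chosen with earlier results of these data known. Values per array are given, by rule, for the 12 genes of lowest p and for the paralogs of EEF1A, EIF4E, EIF4G, EIF4A, EIF4EBP, EIF5A, EIF2 and EEF2 with its kinase. The genes whose sequences are shown and the split into initiation and elongation, were chosen after their values were seen. Alternatives were a replicate block, quantile normalization, subtraction of array medians, cyclic loess (5 iterations), the mean of all probe sets, a filter at the median signal, array weights, a variance trend with robust estimation, 20 bins, every probe set, and each array left out.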

Additional observations from a re-analysis of the deposited data

How the results depend on the processing

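Under every alternative run, 0 of the translation factor genes passed the threshold in limma. Few genes of any kind did in most settings. The most were 191 of 18417 with array weights and 16 of 9208 with the filter at the median signal. Under quantile normalization and cyclic loess 0 of all genes passed. At an unadjusted p under 0.05, 2 to 20 were lower, against 2.94% to 14.1% of the genes tested. Quantile normalization gave a median difference of −0.143, with 7 genes lower at that level, against 5.58% of all genes. The gap between the groups' array medians was −0.0997. Cyclic loess gave −0.0813, 5 genes (against 5.23% of all genes) and −0.0681. Under it 9 genes had groups separate downwards (against 8.14% of all genes) and 2 upwards. Without both replicate 1 arrays the median difference was −0.12, 2 genes were lower at that level (against 2.94% of all genes) and the gap was −0.114. In that setting 20 genes were separate downwards (against 17.7% of all genes) and 2 upwards. The share of all genes separate upwards was not computed for the alternatives. Array weights gave 1 gene higher at an unadjusted p under 0.05, and the filter at the median signal left 0 separate upwards. With each array left out in turn the genes lower at that level numbered 5 to 19 (3.34% to 10.9% of all genes), those separate downwards 18 to 34 (12.3% to 20.4% of all genes) and upwards 1 to 3, where 2 arrays in a group separate more easily. Relative to genes of like signal the initiation median was −0.13, −0.14 and −0.12 under quantile normalization, cyclic loess and array weights, and the elongation median 0.07, 0.08 and 0.05.

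Of 411 values of single genes under alternatives, 14 turned the sign. EEF1A2 read 0.0873 (quantile normalization), 0.125 (cyclic loess), 0.0111 (array weights) and 0.0003 (both replicate 1 arrays left out). EEF2 read 0.112 (quantile normalization), 0.172 (cyclic loess) and 0.154 (both replicate 1 arrays left out), and −0.1501 to 0.0704 with each array left out in turn. EIF2S3 read 0.052 (quantile normalization) and 0.0829 (cyclic loess). EIF4E read 0.119 with array weights and −0.2929 to 0.0664 with each array left out, and EEF1D read 0.195 on its other probe set. The cause was not tested.

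The replicate number as a block left 14 genes lower at an unadjusted p under 0.05, in place of 18, against 6.97% of all genes. The labels give no pairing, and same-numbered arrays deviated with correlations of −0.31, −0.02 and 0.07, so the numbers were not taken to pair the samples.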
